A study of Mus musculus with 10 samples.

Results

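Guanylate binding proteins are large GTPases encoded in the mouse by a gene family in a pair of clusters. The 8 genes described here, Gbp2, Gbp3, Gbp4, Gbp5, Gbp6, Gbp7, Gbp9 and Gbp10, were taken by their names from the 48476 genes of the count table. They were chosen by their levels in these same libraries, where they were lower in 1 arm at days 3, 5 and 7, so the difference between the arms is given as a description, with no p-value or call for them. The family's other named genes are Gbp2b, Gbp8 and Gbp11. RNA-seq was performed on mouse embryonic fibroblasts (MEFs) from E13.5 embryos of the strain label CBA/CaJ X C57BL/6J. All cells received retroviruses made in PlatE packaging cells for Oct4, Klf4 and Sox2 (OKS), the factors that reprogram fibroblasts toward pluripotency, and were grown in iCD1 medium. The control arm also received the red fluorescent protein DsRed (OKS + DsRed, "DR" in the labels), and the other arm received the forkhead transcription factor FoxO6 (OKS + FoxO6). Cells of each arm were collected at days 0, 1, 3, 5 and 7. Every time point gave 1 library of each arm, 10 in all, so a difference on a single day has no replicate check. A MEF culture is a mixture of cells, and the labels name no sorting of infected cells.

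The libraries held between 1208379 and 2225750 expected counts. Foxo6, the gene delivered in the second arm, had a TPM (a transcript level corrected for length and depth) of at most 2.29 in OKS + DsRed, from at most 4 reads. In OKS + FoxO6 it lay between 762.11 and 1356, and it was already at 1017 at day 0. All 11 fibroblast markers had reads in every library. Their summed TPM was 674 to 4223 in OKS + DsRed and 1207 to 3982 in OKS + FoxO6.

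Guanylate binding proteins are among the genes most strongly switched on by interferon gamma. The ligand binds Ifngr1 and Ifngr2, which signal through the kinases Jak1 and Jak2 to gamma-activated sites (GAS) in promoters, while Irf1 and complexes that hold Stat2 and Irf9 act through interferon-stimulated response elements (ISRE). In infected cells the proteins gather on the membranes of vacuoles that hold parasites or bacteria, together with the immunity related GTPases, and help to release microbial products to caspases. Fibroblasts use this system too, although it is best known from macrophages.

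In the GRCm38 annotation, Gbp5, Gbp7, Gbp3 and Gbp2 lie in this order on the plus strand of chromosome 3, within 144 kb, with Gbp2b between Gbp3 and Gbp2. Gbp9, Gbp4, Gbp10 and Gbp6 lie within 216 kb on the minus strand of chromosome 5. Gbp8 overlaps this stretch and Gbp11 lies beyond it. The RefSeq promoter table of GRCm38.p6 held windows, from 250 bases before to 50 after a start, for the 4 genes on chromosome 3 only. Gbp4, Gbp6, Gbp9 and Gbp10 are named without a promoter. The ISRE core was searched as GAAA followed by any 2 bases and a further GAAA, and GAS as TTCNNNGAA, each on both strands. The ISRE core occurred in a window of each of these 4 genes, against 3.44% of 32851 windows of the same length in the table, and GAS in those of Gbp5 and Gbp7, against 8.3%. A second start of Gbp3 had neither. Positions count from the RefSeq starts. The GENCODE gene model of Gbp5 begins farther upstream, so its window lies within that model, and 15 bases of the Gbp2 stretch, with its ISRE core, lie in an annotated exon. The stretches that hold the matches nearest to each start are shown for these 4 genes because only they had a window. They run in the direction of the gene, and capitals mark ISRE core and GAS matches.
Gbp2, chr3:142620483-142620616, plus strand: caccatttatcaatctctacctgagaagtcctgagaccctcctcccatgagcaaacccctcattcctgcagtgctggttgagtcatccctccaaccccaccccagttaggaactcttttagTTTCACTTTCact
Gbp3, chr3:142559864-142560017, plus strand: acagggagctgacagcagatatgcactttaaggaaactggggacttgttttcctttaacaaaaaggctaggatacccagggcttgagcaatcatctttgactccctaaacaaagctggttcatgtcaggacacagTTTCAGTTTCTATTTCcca
Gbp5, chr3:142496754-142496893, plus strand: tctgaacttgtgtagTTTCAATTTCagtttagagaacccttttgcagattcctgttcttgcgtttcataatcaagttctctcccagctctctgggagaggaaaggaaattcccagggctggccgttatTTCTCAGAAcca
Gbp7, chr3:142530156-142530295, plus strand: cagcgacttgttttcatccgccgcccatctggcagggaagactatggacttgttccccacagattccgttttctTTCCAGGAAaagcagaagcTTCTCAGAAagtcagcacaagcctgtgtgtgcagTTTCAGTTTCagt
The ISRE core of Gbp2 lies from -59 to -50 relative to its start, that of Gbp7 from -53 to -44, and Gbp3 has a pair of matches that share bases between -45 and -30. In Gbp5 the match is farther away, from -165 to -156, and a GAS lies from -52 to -44. Gbp5 has a further GAS from -245 to -237, outside the stretch shown. The forkhead core GTAAACA, the letters that forkhead proteins such as FoxO6 commonly bind, was found in 1 window, at -239 to -233 of Gbp3, against 3.65% of all windows. A match is a string of letters and not evidence of binding.

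The 8 genes were low at day 0, were higher by day 5 in both arms, and stayed lower in OKS + FoxO6 from day 3 on. Gbp2, a prenylated member that coats vacuoles of Toxoplasma, reached a TPM of 1.26, 12.9, 159, 296 and 165 on days 0, 1, 3, 5 and 7 with DsRed, and all further values follow these days. With FoxO6 the same gene stood at 7.03, 15.4, 16.7, 74.0 and 55.0. At days 0 and 1 the FoxO6 arm was the higher in TPM, from 19 reads against 2 and from 31 against 24. From day 3 every OKS + FoxO6 library was below every OKS + DsRed library. The TPM of Gbp3 was 0, 4.12, 124, 245 and 114 with DsRed against 4.33, 10.2, 17.2, 80.3 and 57.7 with FoxO6. As for Gbp2, the FoxO6 arm was above the control first and below it from day 3. In bulk libraries, fewer cells that express a gene and less RNA per cell cannot be told apart.
The TPM of Gbp7 was 0.64, 6.77, 48.9, 106.55 and 35.2 with DsRed and 0.37, 3.41, 7.18, 29.7 and 12.8 with FoxO6. The FoxO6 values were below the control on all days, but day 0 rests on 1 read per arm. Day 1 rests on 12 reads against 17 in the control. Gbp5, a prenylated member known as a promoter of inflammasome assembly, was the lowest of the chromosome 3 genes at days 3, 5 and 7, with a TPM of 0, 0, 3.73, 10.6 and 8.42 with DsRed. With FoxO6 it was listed at 0 until day 3, then at 2.45 and 3.56. Gbp5 rests on at most 26 reads per library.
On chromosome 5 the TPM of Gbp4 was 1.04, 3.95, 27.9, 57.8 and 56.9 with DsRed against 0, 0.55, 1.67, 3.11 and 4.27 with FoxO6. The highest OKS + FoxO6 library was thus near the day 1 library of the control. For Gbp9 the TPM was 0, 1.59, 20.5, 46.9 and 35.7 with DsRed against 1.03, 0.84, 5.74, 15.9 and 8.92 with FoxO6. Gbp9 had its highest level at day 5 in both arms.
For Gbp6 the TPM was 0, 0, 14.2, 32.4 and 25.9 with DsRed against 0.22, 0.48, 0, 2.49 and 5.44 with FoxO6. For Gbp10 it was 0.45, 0, 14.1, 21.9 and 5.59 against 0, 0.35, 0.69, 5.14 and 1.24. Gene by gene these values are uncertain, because Gbp6 and Gbp10 share sequence with each other and with a further gene model, but both were lower in OKS + FoxO6 from day 3 on.

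**Figure D1:**
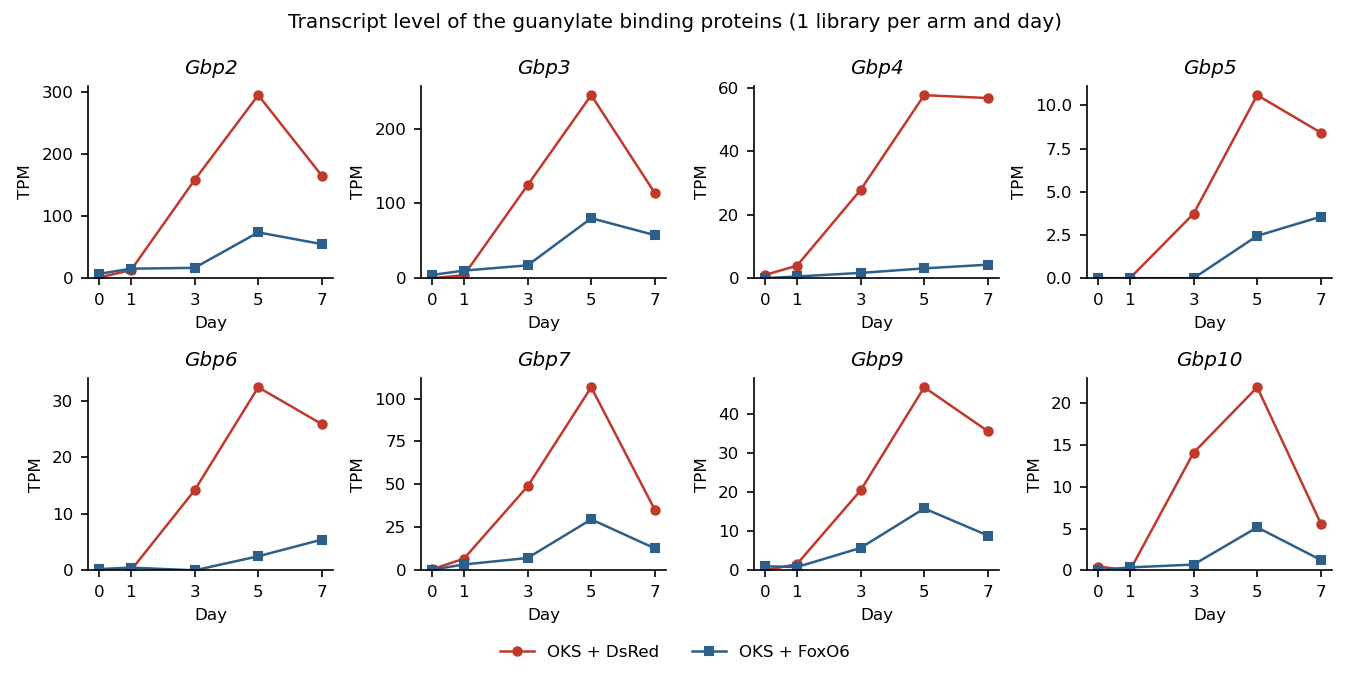
TPM (y axis, linear, a separate scale per gene) of the 8 guanylate binding proteins against day (x axis) in OKS + DsRed (circles) and OKS + FoxO6 (squares), with 1 library per point and no error bars. All 8 genes are highest at day 5 in OKS + DsRed, and at days 3, 5 and 7 the squares lie below the circles in each panel.

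In all 8 genes, the 3 OKS + FoxO6 libraries of days 3, 5 and 7 were below the 3 OKS + DsRed libraries of these days. This was so for 8.7% of the 22782 genes with a read, and nothing is read from the contrast because it chose the genes. Differences of more than 2-fold were counted on the scale of log2(TPM + 1), which understates low genes. At day 3, 8 of the 8 were lower in OKS + FoxO6 (10.6% of all genes), at day 5, 8 of 8 (10.5%), and at day 7, 7 of 8 (14.8%). On these days 0 of the 8 were more than 2-fold higher (7.8%, 9.61% and 7.49% of all genes). Gbp3 was the exception at day 7, just outside the threshold with a log2 difference of -0.97, and Gbp5 was just inside with -1.05. The median difference of the 8 genes was -2.97 (day 3), -1.86 (day 5) and -1.56 (day 7), and that of all genes was 0 on each of these days. At day 0 only Gbp4 was more than 2-fold lower (6.12% of all genes) and Gbp2, Gbp3 and Gbp9 were more than 2-fold higher (9.51%). At day 1, Gbp4 was lower (8.88%) and Gbp3 higher (7.47%). Day 0 levels rest on at most 19 reads per gene and library. At day 0, Gbp4 had 3 reads in OKS + DsRed against 0, while Gbp9 had 3 and Gbp3 had 6 in OKS + FoxO6 against 0. The Gbp4 count at day 1 was 8 reads in OKS + DsRed against 2.

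The size of the gap was computed from counts scaled to TMM-normalised library sizes (CPM), as the ratio of OKS + FoxO6 to OKS + DsRed with a 95% exact interval that covers counting error only. At day 3 the ratio was 0.104 (0.0726 to 0.145) for Gbp2 and 0.137 (0.0962 to 0.190) for Gbp3, from 40 and 43 reads in OKS + FoxO6 against 284 and 232 in the control. At day 5 these genes stood at 0.241 (0.202 to 0.285) and 0.297 (0.250 to 0.353), and at day 7 at 0.365 (0.296 to 0.449) and 0.563 (0.455 to 0.693). Among days 3, 5 and 7, the ratios of both genes were nearest to 1 at day 7. The intervals hold no spread between libraries, so whether the gap changed between days was not tested. For Gbp7 the ratio was 0.104 (0.0675 to 0.155) at day 3, 0.257 (0.210 to 0.314) at day 5 and 0.420 (0.310 to 0.562) at day 7. Gbp7 thus had the same order of days.
In Gbp4 and Gbp9 the intervals of days 3, 5 and 7 overlapped. The ratio of Gbp4 was 0.0559 (0.0199 to 0.127) at day 3, 0.0520 (0.0278 to 0.0896) at day 5 and 0.127 (0.0720 to 0.209) at day 7, with 6, 14 and 17 reads in OKS + FoxO6. For Gbp9 the ratio was 0.290 (0.177 to 0.463) at day 3, 0.323 (0.240 to 0.431) at day 5 and 0.279 (0.188 to 0.403) at day 7. In the order of day 3 ratios, the intervals of the neighbours Gbp4, Gbp2, Gbp7 and Gbp3 overlap, while that of Gbp9 lies above those of Gbp4, Gbp2 and Gbp7. Gbp5 had 9 reads against 0 at day 3, which allows a ratio of up to 0.373.

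**Figure D2:**
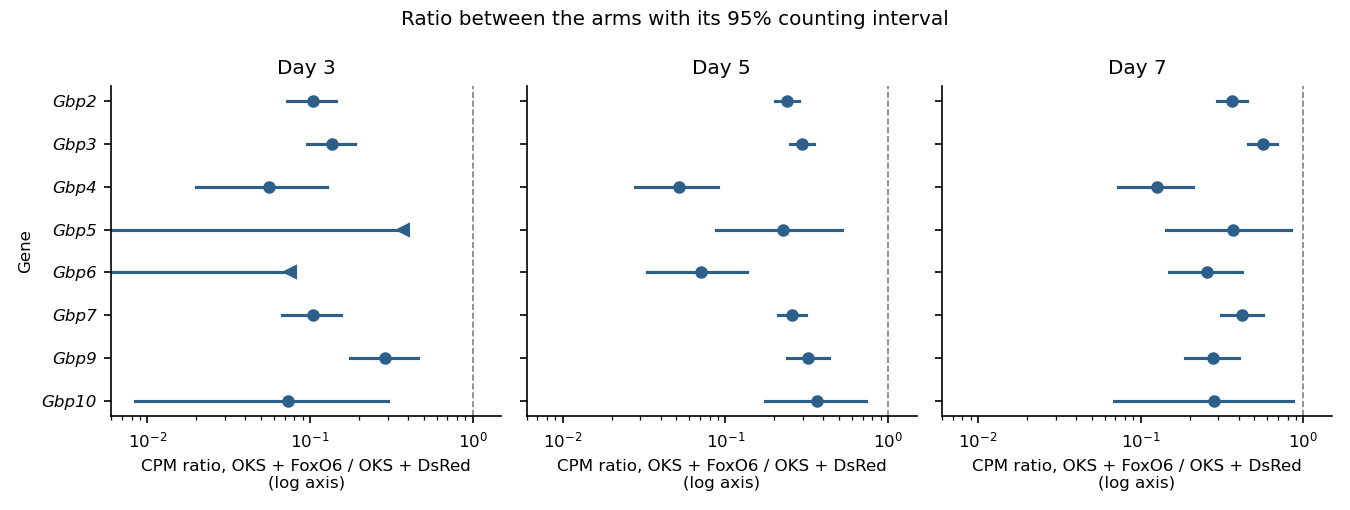
Ratio of CPM in OKS + FoxO6 to OKS + DsRed (x axis, log scale) for each gene (y axis) at days 3, 5 and 7, with bars for the 95% exact interval of counting error and a dashed line at equal levels. Triangles mark the upper limit where OKS + FoxO6 had 0 reads (Gbp5 and Gbp6 at day 3), and at day 5 Gbp4 lies furthest left at 0.0520.

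Gbp6 had 38.1, 91.6 and 93.2 expected counts in OKS + DsRed at days 3, 5 and 7, and 0, 10.4 and 20.2 in OKS + FoxO6. Its ratio was 0.0706 (0.0328 to 0.136) at day 5 and 0.257 (0.150 to 0.419) at day 7. However, 70.7% of its 50-base windows occur in another gene's transcripts, and 65.0% of its windows occur in Gm43302, a protein-coding gene model that spans Gbp10 and Gbp6 on the same strand. Gbp10 shared 84.1% of its windows, 73.3% with Gbp6, and the other 6 genes shared 1.44% to 12.7%. Gm43302 held 19.7, 124 and 76.5 expected counts at days 3, 5 and 7 of OKS + DsRed and 10.7, 29.0 and 19.9 in OKS + FoxO6. Thus reads of this locus were present at day 3 in OKS + FoxO6 although Gbp6 was listed at 0. When the 3 were summed, a choice made after seeing the data, the ratio was 0.123 (0.0626 to 0.222) at day 3, 0.143 (0.104 to 0.193) at day 5 and 0.281 (0.197 to 0.392) at day 7. The locus was lower on each day. At day 3 its ratio of 0.123 lay above the upper limit of 0.0751 of Gbp6 alone. At day 5 its ratio of 0.143 also lay outside the interval of Gbp6 alone. Gbp10 alone had ratios of 0.0736 (0.00835 to 0.303), 0.364 (0.175 to 0.727) and 0.281 (0.0687 to 0.860), from 2.35, 13.6 and 3.86 expected counts in OKS + FoxO6.

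The steps from day to day are given as values of single libraries. They share the levels at days 3, 5 and 7 that chose the genes, so nothing is read from their difference between the arms. In OKS + DsRed, 5, 8, 8 and 8 of the 8 genes were more than 2-fold above day 0 at days 1, 3, 5 and 7 (13.0%, 17.3%, 18.5% and 18.4% of all genes). In OKS + FoxO6 there were 3, 5, 8 and 8 (8.04%, 10.8%, 13.5% and 11.9%). From day 1 to day 3 the CPM of Gbp2 went up 12.2-fold (8.02 to 19.3) in OKS + DsRed and 1.08-fold (0.657 to 1.78) in OKS + FoxO6. From day 3 to day 5 it went up 1.89-fold (1.63 to 2.19) in OKS + DsRed and 4.38-fold (3.10 to 6.33) in OKS + FoxO6. Gbp3 had 29.8-fold (14.9 to 69.9) and 1.63-fold (0.955 to 2.87) in the first step, and 1.98-fold (1.69 to 2.34) and 4.32-fold (3.09 to 6.16) in the second. Gbp7 had 12.0-fold (7.30 to 21.0) against 1.95-fold (0.959 to 4.21), and then 1.91-fold (1.60 to 2.29) against 4.73-fold (3.13 to 7.37). From day 0 to day 1, Gbp7 went up 12.8-fold (2.01 to 535) in OKS + DsRed and 15.5-fold (2.29 to 661) in OKS + FoxO6, each from 1 read at day 0. Gbp2 went up 9.04-fold (2.25 to 78.9) and 2.10-fold (1.15 to 3.94), and Gbp3 4.72-fold (1.86 to 14.2) in OKS + FoxO6, while it had 0 reads at day 0 of OKS + DsRed.
Gbp9 went up 7.24-fold (2.22 to 37.4) from day 1 to day 3 in OKS + FoxO6, from only 3 reads at day 1, against 11.3-fold (4.93 to 31.9) in OKS + DsRed. Gbp4 went up 2.51-fold (0.448 to 25.4) and then 2.22-fold (0.802 to 7.06) in OKS + FoxO6, steps that its few reads cannot place. After day 5 the control fell. The day 7 to day 5 ratio in OKS + DsRed was 0.586 (0.512 to 0.670) for Gbp2, 0.492 (0.422 to 0.573) for Gbp3 and 0.376 (0.312 to 0.452) for Gbp7. In OKS + FoxO6 it was 0.890 (0.702 to 1.13) for Gbp2 and 0.930 (0.741 to 1.17) for Gbp3, both with intervals that include 1. Gbp7 fell there too, to 0.614 (0.448 to 0.832). In OKS + DsRed, Gbp4 fell to 0.674 (0.541 to 0.840) by CPM while its TPM hardly moved, and the effective length of Gbp4 ranged from 2892 to 4448 bases among the libraries of days 3 to 7.

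Summed over the 8 genes, TPM was 3.39, 29.4, 412, 817 and 447 with DsRed and 13.0, 31.2, 49.2, 213 and 149 with FoxO6. The sums of the arms were close at day 1 and apart from day 3. By CPM, OKS + DsRed was higher 8.67-fold (7.27 to 10.4) at day 3, 4.20-fold (3.83 to 4.60) at day 5 and 2.72-fold (2.43 to 3.05) at day 7. Gbp2 and Gbp3 together made up most of the sum at days 3, 5 and 7 in both arms. At day 5, Gbp2 held 36.2% and Gbp3 30.0% of the sum in OKS + DsRed, and 34.8% and 37.7% in OKS + FoxO6.
The clusters kept similar gaps at day 3, 8.85-fold (7.24 to 10.9) for the chromosome 3 genes and 8.11-fold (5.62 to 12.0) for the chromosome 5 genes. At day 5 the chromosome 5 genes were further apart, 6.11-fold (4.95 to 7.61) against 3.80-fold (3.43 to 4.21), and at day 7 they were 4.62-fold (3.61 to 5.97) against 2.27-fold (2.0 to 2.59). These intervals do not overlap between the clusters at days 5 and 7, but they cover counting error only, and the difference between libraries was not tested. With the reads of Gm43302 added to chromosome 5, a choice made after seeing the data, the folds were 6.73 (4.87 to 9.49), 6.21 (5.15 to 7.53) and 4.33 (3.48 to 5.44). Without Gbp4, also chosen after seeing the data, the chromosome 5 folds were 6.01 (3.97 to 9.42), 4.20 (3.31 to 5.36) and 3.69 (2.78 to 4.97), so that the clusters' intervals overlapped at day 5 and stayed apart at day 7. Gbp4 made up 7.08% of the summed TPM at day 5 of OKS + DsRed and 1.46% in OKS + FoxO6.

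**Figure D3:**
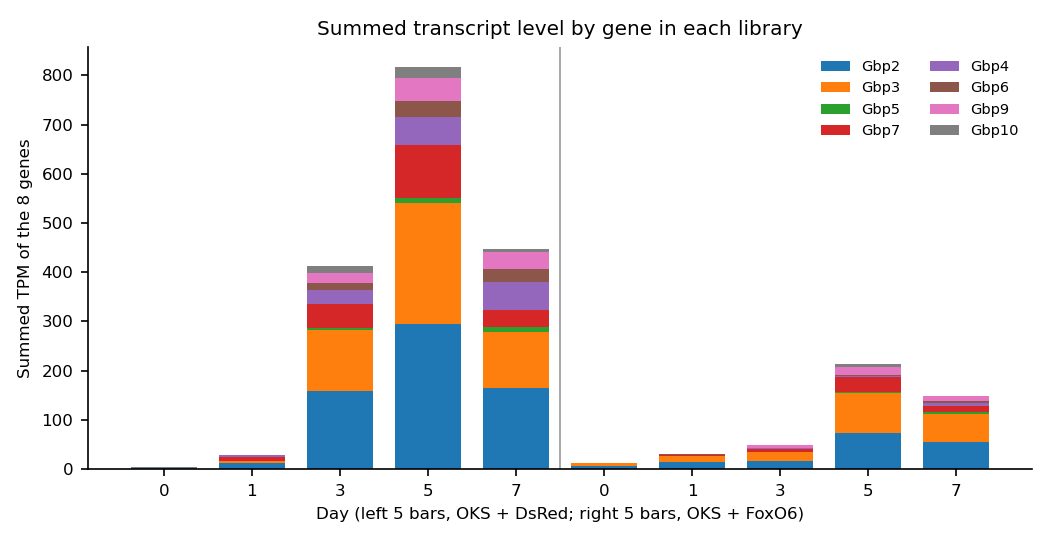
Summed TPM of the 8 genes (y axis, from 0) in each of the 10 libraries, by day (x axis), with the OKS + DsRed bars on the left and the OKS + FoxO6 bars on the right of the grey line and colours for the genes, without error bars since each bar is 1 library. The sum is highest at day 5 in both arms, 817 against 213, and Gbp2 and Gbp3 fill most of every bar from day 3 on.

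A shift shared by the 5 days was fitted over all genes with edgeR's quasi-likelihood test with Benjamini-Hochberg adjustment, with day as a factor. Of 10977 genes that passed the count filter, 1544 passed the threshold of 0.05, or 14.1%, with 783 lower (7.13%) and 761 higher (6.93%) in OKS + FoxO6. A single infected culture may have given all 5 libraries of an arm, so this fit describes these time courses and not independent infections. Gbp2, Gbp3, Gbp4, Gbp7 and Gbp9 passed the filter, and Gbp5, Gbp6 and Gbp10 were not tested. The fitted log2 shift was -1.57 (SE 0.45) for Gbp2, -1.32 (SE 0.44) for Gbp3, -3.66 (SE 0.31) for Gbp4, -1.91 (SE 0.30) for Gbp7 and -1.61 (SE 0.27) for Gbp9. For Gbp2 it was -1.04 without day 3 and -1.04 under DESeq2, and for Gbp3 -0.77 and -0.52. The median over all genes tested was -0.02. Of the other family genes, Gbp2b stood at a TPM of 0, 5.26, 58.1, 82.5 and 37.2 with DsRed and 4.27, 5.28, 8.18, 21.1 and 13.8 with FoxO6. Its shift of -1.48 (SE 0.47) missed the threshold (adjusted p = 0.0591, edgeR's quasi-likelihood test), which it passed without day 0 (-1.79) and without the count filter (-1.44). Gbp8 had at most 13 reads and Gbp11 at most 3 in a library, and neither was tested.

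The genes upstream of the family were then examined in the same fit. The gene lists here and below were chosen with earlier results of these data known. Their counts and p-values therefore describe these libraries and are not independent support. Ifng, the ligand, had 1 read in all, in the day 7 library of OKS + DsRed. Its receptors and kinases were expressed in every library, and of the 4 tested (Ifngr1, Ifngr2, Jak1 and Jak2) 0 passed at an adjusted p under 0.05 with edgeR or with DESeq2, with shifts between -0.05 and 0.33. At an unadjusted p under 0.05 Jak1 alone passed, higher in OKS + FoxO6, and without day 7 it passed the adjusted threshold too (0.42). Among the STAT and IRF transducers reported here, 1 of the 6 tested fell and 0 rose, with edgeR and with DESeq2, against 7.13% and 6.93% of all genes. Irf1, which acts on ISREs, stood at a TPM of 13.7, 30.7, 95.01, 155 and 81.7 with DsRed and 11.8, 15.7, 9.89, 48.4 and 34.0 with FoxO6. Irf1 fell by 1.80 on the log2 scale (SE 0.29, adjusted p = 0.00258, edgeR's quasi-likelihood test). In OKS + FoxO6, Irf1 rests on 14 reads at day 1 and 20 at day 3.
Stat2 and Irf9, which bind ISREs in 1 complex, did not pass, with shifts of -0.63 (SE 0.25) and -0.63 (SE 0.28), although Stat2 passed without day 0 (-0.82), Irf9 without day 7 (-0.94) and both without the count filter (-0.60 and -0.60). Irf7 had a shift of -0.61 (SE 0.42) and its TPM at day 7 was 73.6 in OKS + FoxO6 and 52.9 in OKS + DsRed. Stat3 had a shift of 0.31 (SE 0.11) and Irf2 of 0.52 (SE 0.17), without passing, and Irf2 passed without day 0 (0.64).
Among 5 tested feedback inhibitors, Socs3 rose by 0.89 (SE 0.12, adjusted p = 0.00065, edgeR's quasi-likelihood test) and the other 4 did not pass, against 6.93% of all genes called higher. Socs1, the inhibitor of Jak kinases that is itself an interferon target, had a shift of -0.86 (SE 0.40) from 5 to 24 reads per library.

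The immunity related GTPases, which act beside the guanylate binding proteins on vacuoles, were lower in OKS + FoxO6. The list holds 9 genes, of which 3 did not pass the count filter, among them Iigp1 with 25, 108 and 66 reads at days 3, 5 and 7 of OKS + DsRed and 1, 19 and 9 in OKS + FoxO6. All 6 that were tested passed, against 7.13% of all genes called lower, with a median shift of -2.69 against -0.02 over all genes. This list too was chosen with earlier results known, so the count is a description. Igtp stood at a TPM of 138, 435 and 197 on days 3, 5 and 7 with DsRed and 8.38, 49.8 and 45.0 with FoxO6. The shift was -2.92 (SE 0.30) for Igtp, -2.47 (SE 0.35) for Ifi47, -1.38 (SE 0.30) for Irgm1 and -1.76 (SE 0.39) for Irgm2. Tgtp1 and Tgtp2, near-identical copies whose split is uncertain, had -3.08 (SE 0.54) and -4.44 (SE 0.40). Without day 5 the calls of Igtp (-2.77) and Tgtp1 (-3.24) were left, Irgm1 (-1.31) and Irgm2 (-1.70) missed the threshold, and Tgtp2 and Ifi47 did not pass the count filter, as also without day 7, when 4 calls were left. Without the day term 0 of the 6 passed. Irgm2 also missed the threshold without day 3 (-1.22) and under DESeq2 (-1.01). In the promoter table, 5 of the 6 windows of this list held the ISRE core and 4 held GAS.
Of 4 tested caspase and inflammasome genes, 1 passed, lower, against 7.13% of all genes. Aim2, a sensor of cytosolic DNA, stood at a TPM of 26.6, 69.2 and 118 on days 3, 5 and 7 with DsRed and 5.60, 30.2 and 42.2 with FoxO6, with a shift of -1.47 (SE 0.29, adjusted p = 0.00737, edgeR's quasi-likelihood test). It was highest at day 7 in both arms. Casp1 and Casp4 had at most 6 reads in a library and Il1b had 0, so their arms could not be compared at this depth.

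**Figure D4:**
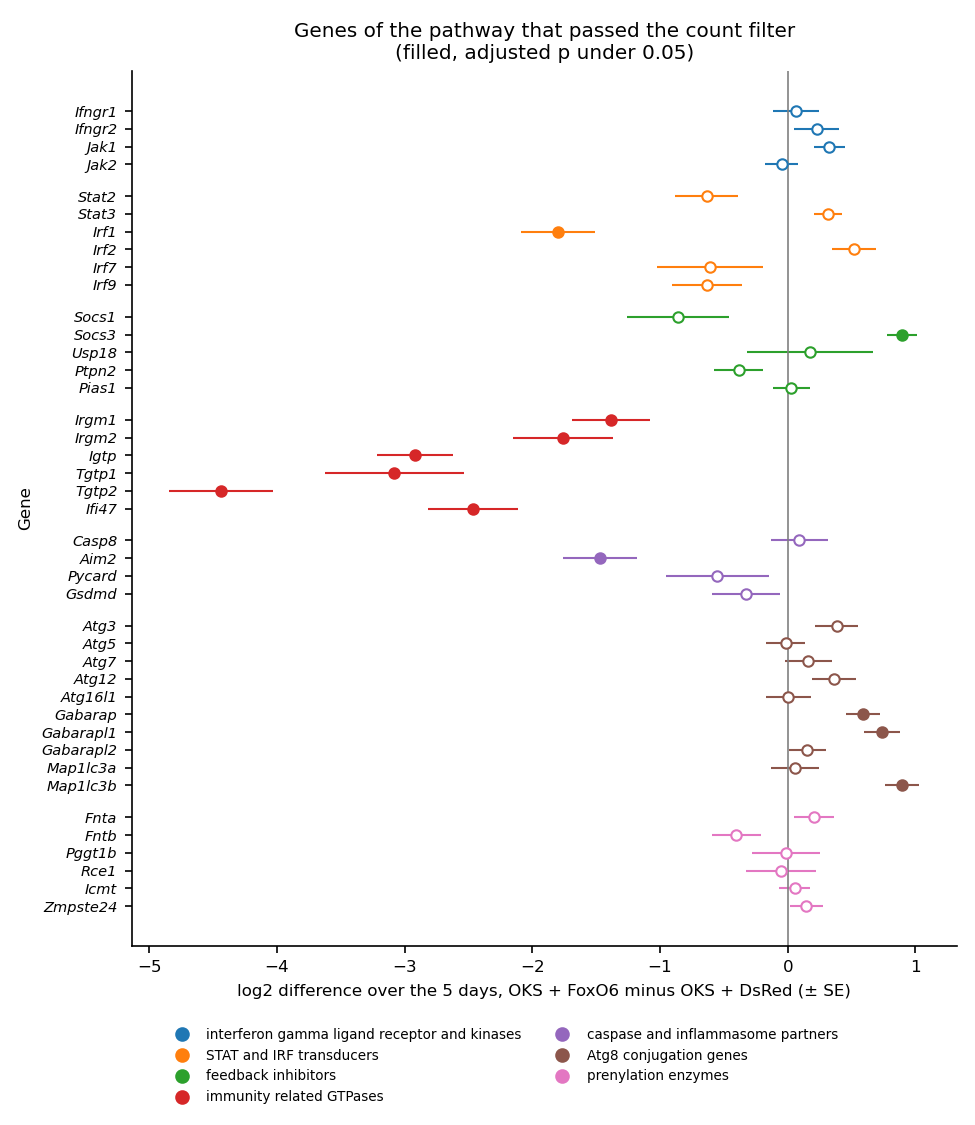
Shift over the 5 days in log2 (x axis, OKS + FoxO6 minus OKS + DsRed, bars show the SE derived from the edgeR F statistic) for the pathway genes that passed the count filter (y axis), coloured by list and filled where the adjusted p was under 0.05. Immunity related GTPases, Irf1 and Aim2 are filled to the left of 0, Socs3 and 3 Atg8 genes to the right, and receptors, kinases and prenylation enzymes lie near 0 and are open.

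Genes that help to place the proteins on membranes were also counted. Of 10 Atg8 conjugation genes, which are needed to load the GTPases onto vacuoles, 3 rose and 0 fell, against 6.93% and 7.13% of all genes. Map1lc3b rose by 0.90 (SE 0.14), Gabarapl1 by 0.74 (SE 0.14) and Gabarap by 0.59 (SE 0.13), and Gabarap lost its call without day 3 (0.60) or day 5 (0.61). The conjugating enzymes Atg3, Atg5, Atg7, Atg12 and Atg16l1 did not pass, with shifts between -0.01 and 0.38. Of the 6 enzymes that attach or process lipid anchors on proteins such as Gbp2 and Gbp5, 0 passed with edgeR, adjusted or at an unadjusted p under 0.05, and 0 with DESeq2. Fntb had the shift furthest from 0, -0.40 (SE 0.19).

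The pattern of the family over the 10 libraries was compared with that of the 11415 genes whose mean TPM was 5 or more, by Pearson's r with the mean of the 8 genes' standardised log2(TPM + 1) values. The libraries are shared by all genes, so r is a description. The 10 most similar of the genes compared were Irgm1 (0.988), Tap1 (0.987), Rnf114 (0.985), Erap1 (0.983), Igtp (0.981), Iigp1 (0.980), Apol6 (0.976), Irgm2 (0.975), Mpeg1 (0.971) and Crhr2 (0.970). Tap1 and Erap1 transport and trim peptides for MHC class I. Tap1 stood at a TPM of 131, 291 and 194 on days 3, 5 and 7 with DsRed and 15.5, 44.7 and 41.8 with FoxO6. Gbp2b had rank 57 (0.9503), Stat2 rank 72 (0.945), Irf1 rank 100 (0.936) and Irf9 rank 108 (0.935). By Spearman's rank correlation only 1 of these 10 was again among the first 10. Within the family, r lay between 0.782 for Gbp3 and Gbp4 and 0.986 for Gbp2 and Gbp3.

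Markers of other cells that could carry these genes were counted as well. Of the 12 macrophage markers, 2 were tested and 1 passed, Laptm5, with a shift of -1.11 (SE 0.26, adjusted p = 0.0168, edgeR's quasi-likelihood test), which it lost without day 1, 3 or 5 (-1.04, -0.92 and -1.04). The summed TPM of the 12 was 22.8, 87.9, 113, 154 and 86.6 with DsRed and 34.0, 35.45, 37.4, 58.0 and 60.3 with FoxO6. Cd68, the other marker tested, did not pass, with a shift of -0.51 (SE 0.33). It had 6, 46, 39, 16 and 21 reads with DsRed and 26, 19, 27, 24 and 11 with FoxO6. Ptprc, Adgre1, Csf1r, Aif1, Tyrobp and Fcer1g had 0 to 3 reads in every library. Cd14 had at most 3, Lyz2 at most 6 and Itgam at most 8. Mpeg1, which the list also holds, had 57, 167 and 91 reads at days 3, 5 and 7 of OKS + DsRed and 3, 10 and 23 in OKS + FoxO6. Of 8 T and NK cell markers, 0 could be tested, their summed TPM was 0 to 6.42 and 0 to 20.1 in the arms, and Gzma and Nkg7 were at 0 throughout. Cd3g held most of this sum, with 3, 3 and 6 reads at days 3, 5 and 7 of OKS + DsRed and 0, 16 and 17 in OKS + FoxO6. Of the 9 endothelial markers, 2 were tested and both passed, higher in OKS + FoxO6. Tek rose by 0.95 (SE 0.13) and Kdr by 2.19 (SE 0.57), and Kdr lost its call without day 3 (2.09) or day 5 (1.69) and under DESeq2 (2.13), while Cdh5, Emcn and Tie1 had at most 7 reads. Pecam1 had 18 reads at day 7 of OKS + DsRed against 2 in OKS + FoxO6 and at most 3 in the other libraries, and Egfl7 had at most 5. Their summed TPM was 38.7 to 63.2 in OKS + DsRed and 45.2 to 148 in OKS + FoxO6. Of the 11 fibroblast markers, 4 rose (Pdgfra, Twist1, Dcn and Postn) and 1 fell (Col3a1), against 6.93% and 7.13% of all genes. The part of these other genes in the levels of the family was not tested.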

How the data were processed

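MEF libraries were grouped by the arm and day in their labels. The authors used RSEM with bowtie2 and the GENCODE M13 transcripts (mm10), and deposited expected counts, which are RSEM estimates without normalization, and TPM. The methods name a TruSeq kit and the labels a VAHTS kit. Counts were identical in the series table and the library tables. Depth, 1208379 to 2225750 counts per library, limits genes of few reads, and intervals cover counting error only. Day differences used log2(TPM + 1), a pseudocount of 1, and a 2-fold threshold. Ratios used rounded counts over TMM-scaled library sizes (CPM) with 95% Clopper-Pearson intervals. edgeR 4.0.16 in R 4.3.3 fitted rounded counts of all genes with TMM, filterByExpr and day as a factor. The SE of a shift is its absolute size divided by the square root of the quasi-likelihood F statistic. The script was tested on simulated data. DESeq2 1.42.0, no filter, no day term, a pseudocount of 0.1, CPM, a mean TPM of at least 1, Spearman correlation and each day left out were alternatives. Members and lists were chosen with earlier results of these data known. Named genes are all members, the other Gbp genes, list genes that passed or have a described role, and the 10 genes most similar in pattern. Coordinates are from GENCODE M21 (GRCm38). Some items are not reported here.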

Additional observations from a re-analysis of the deposited data

Results flagged for a closer look

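Several genes had the other direction of the arm difference early, and in 2 of them the counting interval at that day lay above 1. At day 0, Gbp2 was higher in OKS + FoxO6, with a CPM ratio of 5.04 (95% exact interval 1.22 to 44.6) from 19 reads against 2, while its ratio was below 1 at days 3, 5 and 7. At day 1, Gbp3 was higher in OKS + FoxO6, with a ratio of 2.50 (1.07 to 6.48) from 22 reads against 8, and lower from day 3 on. Both rest on few reads in 1 library per arm, and the difference between days was not tested.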

How the results depend on the processing

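The counts of the shared shift depended on the day term and on the middle days. Without day as a block, 168 genes passed, 44 lower and 124 higher in OKS + FoxO6. Of the pathway genes named with a call, Map1lc3b alone passed without it. Leaving out 1 day gave 663 to 1569 genes, 297 to 813 lower and 366 to 812 higher, with the lowest counts of all genes without day 5 and 705 without day 3. Without the filter 2249 genes passed, 1101 lower and 1148 higher, and DESeq2 called 1179 genes. Gbp4 did not pass the count filter without day 5 or without day 7. The fitted shifts of Gbp2, Gbp3, Gbp4, Gbp7 and Gbp9 were below 0 in the alternatives in which each was fitted, as a description of genes chosen for this direction. The 8 genes' count of those more than 2-fold lower at day 0 went from 1 to 2 with a pseudocount of 0.1, and the counts at days 3, 5 and 7 were 8, 8 and 7 under each alternative. Spearman correlation shared 1 of the 10 most similar genes and a mean TPM of at least 1 shared 8. Summing Gbp6, Gbp10 and Gm43302, chosen after seeing the data, moved the Gbp6 ratio at day 3 from 0 to 0.123 and at day 5 from 0.0706 to 0.143. Genes with few reads, such as Gbp5, and the rounding of expected counts limit what single days can show.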
